A study of Mus musculus with 9 samples.

Results

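The small nucleolar RNA (snoRNA) host genes described here are Gas5, Snhg1, Snhg3, Snhg5, Snhg6, Snhg8, Snhg12, Snhg15 and Zfas1. They were found by gene symbol in a table of 55401 genes, and all 9 symbols matched 1 row each. Of the 16762 genes that passed a filter on low counts, 8 were members. Snhg3 did not pass and is described by its counts and by a fit without that filter.

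The counts came from primary neonatal mouse ventricular myocytes (NMVMs), the contractile cells of the ventricle, taken from wild-type C57BL/6J pups at 1 day of age. The study had 3 groups of 3 libraries. Control cells stayed at normal oxygen in DMEM with 10% FBS. Hypoxia cells spent 6 h in a sealed AnaeroPack chamber in DMEM that lacked glucose and serum. Hypoxia + rSRGN cells had the same chamber and medium with recombinant serglycin (rSRGN), a secreted proteoglycan, at a dose that the labels do not give. Low oxygen, loss of glucose and loss of serum came together, so their parts in a difference from control cannot be told apart. Nothing in the labels says that the libraries of a group came from separate isolations of cells, so the p-values measure the spread between these libraries, which may be technical.

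SnoRNAs guide the chemical modification of ribosomal and spliceosomal RNA, and most vertebrate snoRNAs are cut from introns of longer host transcripts. C/D box snoRNAs guide ribose methylation and H/ACA box snoRNAs guide pseudouridylation. The spliced RNA left by a noncoding host gene usually codes for no protein. Many such RNAs begin with a cytosine followed by a run of pyrimidines, as the mRNAs of ribosomal proteins do, and several are known to be removed by nonsense-mediated decay when ribosomes read them. Gas5, growth arrest-specific 5, was named for its accumulation in cells that stop growing.

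The members were grouped by the snoRNAs inside them. Gas5, Snhg1, Snhg5, Snhg6 and Zfas1 hold C/D box snoRNAs. Snhg3, Snhg8 and Snhg15 hold H/ACA box snoRNAs, and Snhg12 holds both kinds. The table lists 33 snoRNA entries at 31 loci inside the 9 members on the same strand, of which Gas5 has 10 entries at 9 loci and Snhg1 has 8. Searched by letters, 20 of the 33 entries had TGATGA near the 5′ end and CTGA near the 3′ end, the C and D boxes, 7 had ACA just before the 3′ end, and 6 had neither exact pattern. The 5 snoRNA sequences printed here were chosen because they are what the host transcripts carry and because 2 of them, Snord87 and Gm23201, are the only entries with any count. Capitals mark the C and D boxes or the ACA letters, and the sequences are GENCODE M21 transcripts in GRCm38. Snord47 lies in Gas5 at chr1:161038082-161038158 on the plus strand and Snord50a in Snhg5 at chr9:88521529-88521600 on the minus strand. Snord87 lies in Snhg6 at chr1:9942463-9942549 on the minus strand, Snora24 in Snhg8 at chr3:123507937-123508066 on the minus strand, and Gm23201 in Zfas1 at chr2:167064998-167065086 on the plus strand.
Snord47: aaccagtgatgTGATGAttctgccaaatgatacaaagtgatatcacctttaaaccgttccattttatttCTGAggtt
Snord50a: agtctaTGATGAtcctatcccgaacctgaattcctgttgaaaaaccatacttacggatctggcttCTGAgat
Snord87: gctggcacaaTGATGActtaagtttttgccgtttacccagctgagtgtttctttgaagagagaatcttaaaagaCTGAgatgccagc
Snora24: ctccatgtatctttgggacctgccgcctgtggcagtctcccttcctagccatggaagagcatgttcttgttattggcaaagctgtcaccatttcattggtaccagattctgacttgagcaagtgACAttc
Gm23201: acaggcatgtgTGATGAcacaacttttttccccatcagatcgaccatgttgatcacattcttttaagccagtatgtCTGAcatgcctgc

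The pyrimidine starts were read from the same annotation. A start was counted where the transcript began with C and at least 4 further C or T bases. It was found in 13 of the 81 annotated transcripts of the 9 members (16%), against 2.02% of 141767 annotated transcripts, 2.22% of 18930 long noncoding transcripts and 12.1% of 232 protein-coding transcripts of ribosomal protein genes. At least 1 such start was annotated for 7 of the 9 members, against 4.54% of all genes. The 9 members have 81 transcripts, while 55450 genes have 141767, so a member has more transcripts in which a start can be found. In Snhg3, Snhg5, Snhg6, Snhg8 and Zfas1 only 1 transcript had it. The shares of genes are therefore not on an equal footing. Snhg1 and Snhg15 had none. These shares describe the annotation, since transcripts of a gene share starts and these libraries did not map transcript ends. The first 30 bases of 1 transcript per member are printed with the cytosine and its run of pyrimidines in capitals. The transcript was chosen for having such a start where the member had any. Those of Gas5, Snhg1, Snhg5 and Zfas1 are annotated as retaining an intron. The first base need not be the RefSeq start, as for Snhg8 (123508404 here and 123508336 in RefSeq). Where a member had no such start, the transcript at its RefSeq start is in lower case.
Gas5: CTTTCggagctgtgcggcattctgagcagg
Snhg5: CTTTTacgacggagcctaagatattctttg
Snhg6: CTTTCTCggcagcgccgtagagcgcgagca
Zfas1: CCTTTCgttccggcggctcctagagcgttt
Snhg12: CCTTTCTCgcttcatccgcggtccctgtct
Snhg8: CCCTCgcgcgcaggctcttgggagagcgtc
Snhg3: CTCTCTaggcgtcgctctcttggtgtgctt
Snhg1: ctcatttttccttgttcggggtaagtactc
Snhg15: aactttaagcacacgtgagcgtcctcagct

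Library totals over all genes ran from 16583985 to 22781557 fragments. Control libraries were the deepest, at 21669017 to 22781557, and the lowest control total was above the highest total of either hypoxic group (20826701). Levels are given as CPM, counts scaled to the library total after TMM scaling, which sets the bulk of genes equal between libraries. All 12 cardiomyocyte markers had counts in every group. The summed cardiomyocyte markers stood at 42724 to 52437 CPM in control, 3698 to 5601 CPM in hypoxia and 7102 to 7545 CPM in hypoxia + rSRGN. The summed fibroblast markers, at 11378 to 13430 CPM in control, 22259.9 to 25009 CPM in hypoxia and 25137 to 26150.4 CPM in hypoxia + rSRGN, were below the cardiomyocyte sum in every control library and above it in every library of both hypoxic groups.

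**Figure D1:**
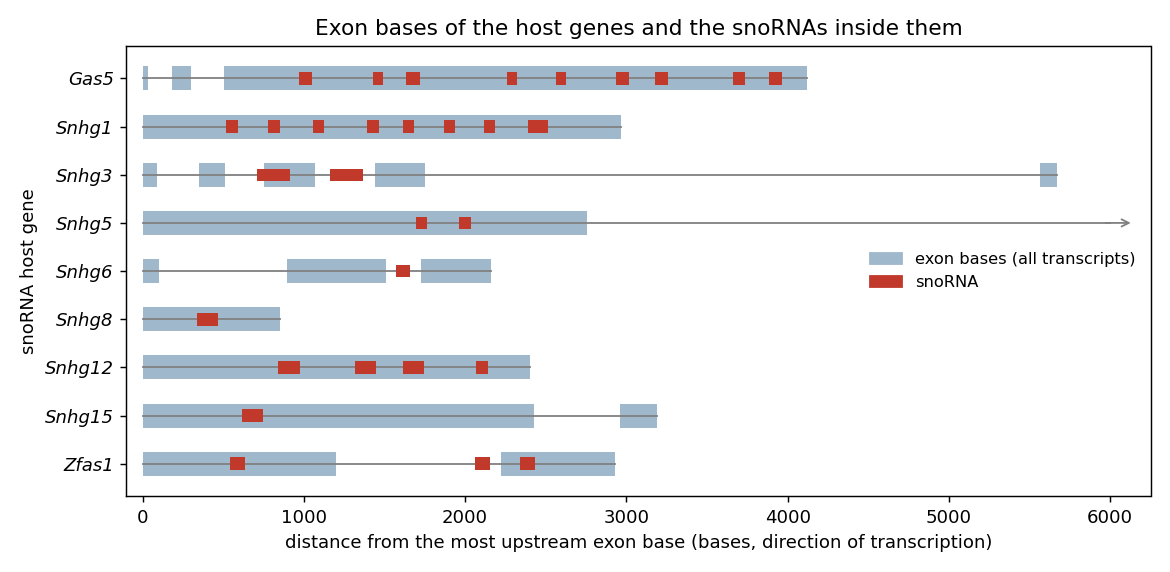
Maps of the 9 snoRNA host genes drawn to scale from the most upstream exon base (horizontal axis, bases in the direction of transcription). Pale bars are bases that lie in an exon of at least 1 annotated transcript, red bars are snoRNAs, and the arrow marks Snhg5, whose span of 28295 bases runs past the plot; 29 of the 33 snoRNA entries lie wholly inside pale bars.

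The maps show how the counting treats these genes. Taken over all annotated transcripts, exons cover 100% of Snhg1, Snhg8 and Snhg12 and 91.3% of Gas5. As many as 20 of the 25 annotated Gas5 transcripts and 14 of the 18 Snhg1 transcripts are annotated as retaining an intron, and none of the 10 Snhg12 transcripts is. In these 4 genes a fragment from an unspliced transcript could be counted for the host in the same way as a spliced fragment. A fragment that touched the exons of more than 1 gene was dropped by the default of the counting tool, and this removes fragments that touch the 29 snoRNA entries lying wholly in host exons.

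In hypoxia against control, every tested snoRNA host gene was higher. All 8 passed the call, which needed an adjusted p below 0.05 by the edgeR quasi-likelihood test and a fold change of at least 1.5, and 26.4% of all tested genes were called higher (51.6% in either direction). Their log2 fold changes ran from 0.84 to 1.37 with a median of 1.12, against a median of 0.054 over all 16762 tested genes. For all 8 the lowest hypoxia library was above the highest control library, and 37.7% of all tested genes also separated upward in this way. Summed over the members, the level was 181 ± 13.9 CPM in control and 383 ± 6.27 CPM in hypoxia (SD, n = 3 each), and Gas5 made up 42.9% to 46.8% of the members' counts in each of the 9 libraries.

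Markers of other cell types moved in the same comparison. All 12 cardiomyocyte markers were called lower. Of the 10 fibroblast markers 8 were called higher. The summed macrophage markers stood at 232.4 to 248 CPM in control and 24.7 to 27.0 CPM in hypoxia, most of it from Lyz2, lysozyme, at 194 ± 3.94 and 15.3 ± 1.499 CPM (SD, n = 3 each). Only 3 of the 9 macrophage markers had at least 10 counts in every library, and these 3 were called lower. The other 6 were called lower as well, but passed the filter on low counts through the control group, so their calls add no support. Of the 8 endothelial markers 6 were called lower, Vwf among them through the same filter, with sums of 74.0 to 103 CPM and 50.04 to 64.5 CPM. No marker on these lists was at 0 in a whole group. In RNA from whole cultures, fewer cells of a type and less RNA per cell cannot be told apart. The part of these shifts in the host gene result was not tested.

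**Figure D2:**
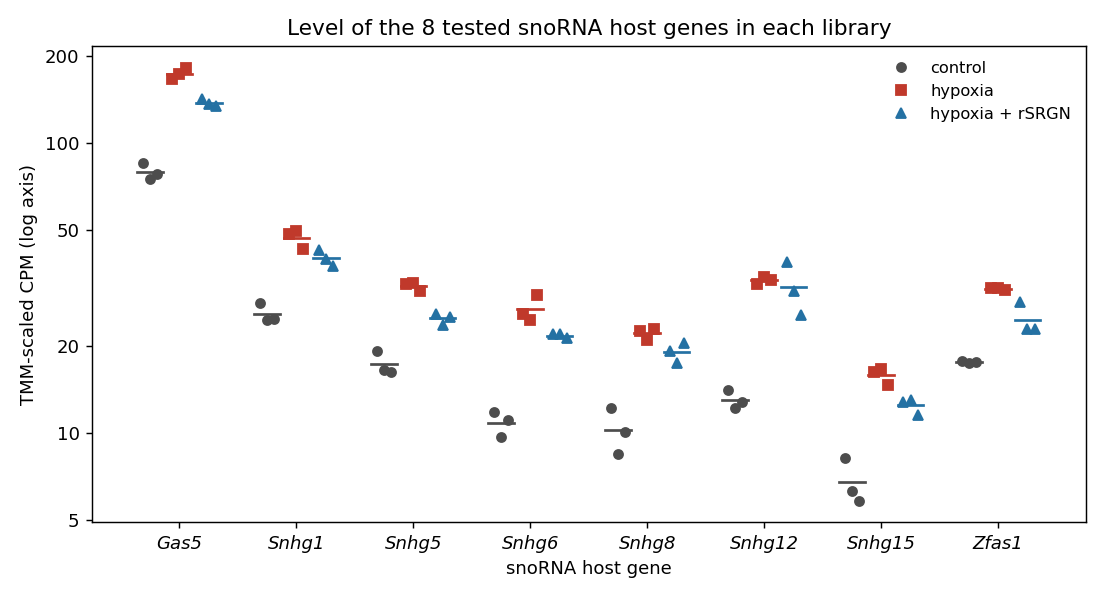
TMM-scaled CPM on a log axis for the 8 tested snoRNA host genes, with a point for each library and a bar at the mean of the 3 libraries of a group. Every hypoxia library sits above every control library for each gene, and the hypoxia + rSRGN points lie below the hypoxia points for all but Snhg12.

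Gas5 had the highest counts of the C/D box hosts. It stood at 85.3, 74.9 and 77.9 CPM in the control libraries, 166, 172 and 182 CPM in hypoxia, and 142, 136 and 134 CPM in hypoxia + rSRGN. The 3 groups did not overlap, with hypoxia highest and control lowest. The rise in hypoxia was 2.18-fold (log2 fold change 1.13, SE 0.073, edgeR adjusted p = 5.70e-12). Hypoxia + rSRGN was 0.34 lower than hypoxia on the log2 scale (log2 fold change -0.34, SE 0.072, edgeR adjusted p = 0.00284), which is short of the fold limit.

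Snhg1, the host of Snord22 and 7 other snoRNA entries, had 28.1, 24.4 and 24.7 CPM in control, 48.6, 49.6 and 43.2 CPM in hypoxia, and 42.7, 39.7 and 37.7 CPM in hypoxia + rSRGN. The hypoxia libraries were the highest, though the lowest of them was only just above the highest rSRGN library. Its log2 fold change was 0.87 in hypoxia against control (SE 0.094, edgeR adjusted p = 2.94e-08) and -0.24 in hypoxia + rSRGN against hypoxia (SE 0.093, adjusted p = 0.0867).

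Snhg5 carries Snord50a and Snord50b. Its levels were 19.1, 16.5 and 16.2 CPM in control, 32.6, 32.9 and 30.9 CPM in hypoxia, and 25.7, 23.6 and 25.2 CPM in hypoxia + rSRGN. The 3 groups were separate. Snhg5 had the lowest log2 fold change of the tested members in hypoxia + rSRGN against hypoxia, at -0.37 (SE 0.097, edgeR adjusted p = 0.0117), after a log2 fold change of 0.89 in hypoxia against control (SE 0.099, adjusted p = 4.45e-08). That rank rests on single libraries, since without rSRGN replicate 1 Zfas1 was at -0.46 and Snhg5 at -0.40.

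Snhg6, with Snord87 in an intron, read 11.8, 9.66 and 11.1 CPM in control, 25.8, 24.6 and 30.002 CPM in hypoxia, and 21.9, 21.9 and 21.2 CPM in hypoxia + rSRGN. Hypoxia replicate 3 was the highest library, and the rSRGN libraries lay close together. The log2 fold change was 1.30 in hypoxia against control (SE 0.11, edgeR adjusted p = 6.63e-10) and -0.31 with rSRGN (SE 0.11, adjusted p = 0.0526).

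Zfas1, transcribed away from Znfx1 and the host of Snord12, varied little in control (17.7, 17.4 and 17.6 CPM) and in hypoxia (31.7, 31.6 and 31.2 CPM). In hypoxia + rSRGN it read 28.2, 22.8 and 22.8 CPM, so that replicate 1 stood apart from the other 2 libraries and nearer to hypoxia. Its log2 fold change was 0.84 in hypoxia against control (SE 0.10, edgeR adjusted p = 1.69e-07) and -0.36 with rSRGN (SE 0.10, adjusted p = 0.0174). The rise was the smallest fitted among the tested members, with Snhg1 (0.87) and Snhg5 (0.89) within its SE.

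Among the hosts of H/ACA box snoRNAs, Snhg8 had 12.2, 8.44 and 10.1 CPM in control, 22.6, 20.98 and 22.8 CPM in hypoxia, and 19.2, 17.5 and 20.4 CPM in hypoxia + rSRGN. Control replicate 2 was the lowest library. The log2 fold change was 1.11 in hypoxia against control (SE 0.12, edgeR adjusted p = 5.67e-08). With rSRGN it was -0.22, with a 95% interval from -0.47 to 0.034 and an adjusted p of 0.242 by edgeR.

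Snhg15, which carries Snora9, had the lowest CPM of the tested members, a scale that takes no account of length. Its levels were 8.18, 6.32 and 5.85 CPM in control, 16.3, 16.6 and 14.6 CPM in hypoxia, and 12.8, 12.96 and 11.6 CPM in hypoxia + rSRGN. The 3 groups did not overlap. The log2 fold change was 1.22 in hypoxia against control (SE 0.14, edgeR adjusted p = 5.62e-08) and -0.35 with rSRGN (SE 0.13, adjusted p = 0.0777).

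Snhg12 carries 3 H/ACA box loci (Snora16a, Snora44 and Snora61) and the C/D box Snord99. It had the largest fitted rise of the tested members, ahead of Snhg6 (log2 fold change 1.30, SE 0.11) by less than either SE. The levels of Snhg12 were 14.1, 12.2 and 12.8 CPM in control, 32.7, 34.4 and 33.8 CPM in hypoxia, and 38.8, 31.0 and 25.6 CPM in hypoxia + rSRGN. The rSRGN libraries spread across the hypoxia range, with 1 above it and 2 below. The log2 fold change was 1.37 in hypoxia against control (SE 0.12, edgeR adjusted p = 1.81e-09). With rSRGN it was -0.083 with a 95% interval from -0.33 to 0.16 (edgeR adjusted p = 0.694), and it was 0.061 when rSRGN replicate 3 was left out. Whether Snhg12 differs from the other members in this comparison was not tested.

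Snhg3, the host of Snora73a and Snora73b, had 5, 5 and 7 fragments in control, 2, 0 and 2 in hypoxia, and 0, 1 and 6 in hypoxia + rSRGN. These are 17, 4 and 7 fragments per group, and the rSRGN libraries covered nearly the whole range. In a fit without a filter on low counts the difference between hypoxia and control had an edgeR adjusted p of 0.245 (SE 1.17 on the log2 scale), so no difference was detectable from these counts. Of the 986 exon bases of Snhg3, 821 (83.3%) are also exon bases of genes that are not snoRNAs. Rcc1, an exchange factor for the GTPase Ran transcribed on the same strand, shares 135 of them, and Gm17300 on the opposite strand shares 705. Fragments that touch these shared bases were dropped in the counting, so the Snhg3 counts do not measure its level.

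**Figure D3:**
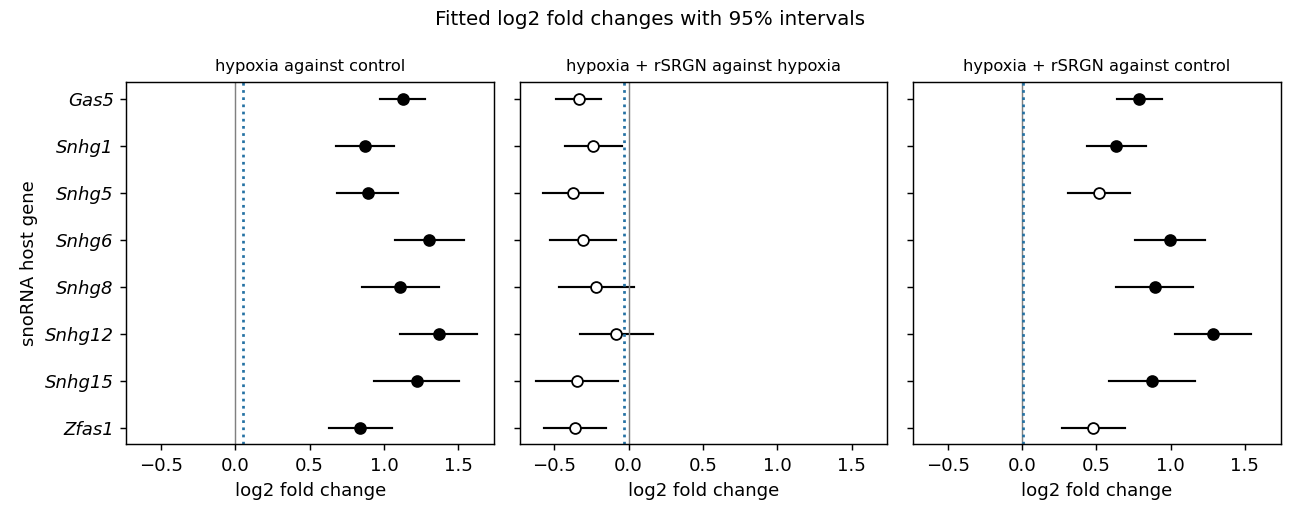
Log2 fold changes (horizontal axis) of the 8 tested snoRNA host genes in the 3 comparisons, with lines for 95% intervals, filled points for genes past the call and open points for genes not past it. The dotted line marks the median of all 16762 tested genes. The points run from 0.84 to 1.37 in hypoxia against control and from -0.37 to -0.083 with rSRGN against hypoxia.

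Hypoxia + rSRGN was compared with hypoxia to see what the added protein changed in hypoxic cells. It uses the same hypoxia libraries as the comparison with control, so their values are not independent of each other. None of the 8 tested host genes passed the call by edgeR, and 3.13% of all tested genes did (0.859% lower). DESeq2 also called 0 of them. Without the fold limit, 3 members were lower at an adjusted p below 0.05, namely Gas5, Snhg5 and Zfas1, by edgeR and by DESeq2 alike, and 6.11% of all tested genes were lower by that edgeR rule. At an unadjusted p below 0.05, 6 of the 8 were lower by either tool, and 13.5% of all tested genes were lower by that edgeR rule (29.4% in either direction). All 8 log2 fold changes were below 0, with a median of -0.32 against -0.029 for all tested genes. In 7 of the 8, all but Snhg12, every rSRGN library was below every hypoxia library, as in 15.5% of all tested genes. The summed level of the members was 312 ± 17.2 CPM (SD, n = 3).

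The adjusted p of Gas5 stayed below 0.05 under all 18 alternatives that adjust it, reaching at most 0.0244. Snhg5 lost it without rSRGN replicate 2 (edgeR adjusted p = 0.0742), and Zfas1 lost it without rSRGN replicate 2 (0.109) or replicate 3 (0.0896). Cardiomyocyte markers moved in this comparison as well, with 10 of the 12 called higher (6 without hypoxia replicate 3) and none lower, while 1 of 10 fibroblast markers was called lower, 1 of 8 endothelial markers (Kdr) was called higher, and 0 of 9 macrophage markers passed the edgeR call (2 at an unadjusted p below 0.05, against 29.4% of all tested genes). The part of these markers in the host gene values was not tested.

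Against control, hypoxia + rSRGN had all 8 members at higher levels. The comparison shares its control libraries with the first. By edgeR, 6 members were called higher, and 24.1% of all tested genes were (48.8% in either direction). Snhg5 (log2 fold change 0.52, adjusted p = 8.77e-05) and Zfas1 (0.48, adjusted p = 0.000265) missed the fold limit. The median log2 fold change was 0.83 against 0.0076 for all genes. In all 8 members the rSRGN libraries were above the control libraries, as in 36.6% of tested genes. Markers moved here too, with all 12 cardiomyocyte markers called lower, as were the 3 macrophage markers with at least 10 counts in every library, 7 of 10 fibroblast markers called higher, and 6 of 8 endothelial markers called lower (3 without rSRGN replicate 3). Vwf, among these 6, passed the filter on low counts through the control group, so its call adds no support. The part of all these markers in the host gene values was not tested.

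Levels can be compared between members only per length. Per kilobase of exon bases, Gas5 was highest in control at 21.1 ± 1.43 CPM per kb and Snhg8 followed at 12.02 ± 2.22 CPM per kb (SD, n = 3). Snhg8, Snhg6, Zfas1 and Snhg1 came next to each other with overlapping neighbours, down to 8.67 ± 0.696 CPM per kb for Snhg1. Snhg12 (5.42 ± 0.392) and Snhg5 (4.76 ± 0.441) also overlapped, and Snhg15 was lowest of the tested members at 2.56 ± 0.465 CPM per kb. In hypoxia Gas5 stood at 46.1 ± 2.16 CPM per kb and the order was the same. In hypoxia + rSRGN the ranges of Snhg1 overlapped those of Snhg12, and the ranges of Snhg12 those of Zfas1, at 12.9 to 13.5 CPM per kb. The lengths were not corrected for exon bases shared with other genes, where fragments were dropped. These ran from 4.0% of exon bases in Snhg5 to 23.9% in Zfas1 among the tested members. The order below Gas5 also depends on the length used. Per kilobase of the longest spliced transcript, Gas5 was again highest in every group (119 ± 8.06 CPM per kb in control) but Snhg1 was next (36.3 ± 2.91) and Snhg12 was the lowest of the tested members in control (8.46 ± 0.612), with a range that overlapped that of Snhg15.

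Of the snoRNAs themselves, 31 of the 33 entries had no count in any library. Sequencing began from RNA selected by its poly(A) tail, which mature snoRNAs lack, and most of these entries lie in host exons where their fragments are dropped, so a 0 here says nothing of the snoRNA. The 2 entries with counts, Snord87 and Gm23201, have no base in a host exon. Snord87 had 3, 1 and 1 fragments in control and 0 in the other 6 libraries. Gm23201 had 17, 11 and 20 fragments in control, 0, 2 and 6 in hypoxia, and 3, 2 and 0 in hypoxia + rSRGN. Control was the highest group for both entries and the lowest for their hosts Snhg6 and Zfas1. Neither passed the filter, and in the fit without that filter Gm23201 was lower in hypoxia than in control (log2 fold change -2.29, SE 0.782, edgeR adjusted p = 0.0104). Snord87, with 5 fragments in control and 0 in hypoxia, had an edgeR adjusted p of 0.196 in that fit. These fragments lie in introns of the hosts, and snoRNA and unspliced host RNA cannot be told apart in them.

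Gas5, Snhg1 and Zfas1 each have a protein-coding gene on the other strand whose start lies within 2000 bases, so host and neighbour were compared. The starts are 427 bases apart for Gas5 and Zbtb37 (a zinc finger protein), 106 for Snhg1 and Slc3a2 (the heavy chain of amino acid transporters), and 81 for Zfas1 and Znfx1 (a helicase-like zinc finger protein), whose exons share 82 bases.

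Zbtb37 moved against Gas5. It read 28.4, 27.8 and 36.0 CPM in control, 13.1, 14.4 and 13.3 CPM in hypoxia, and 16.3, 15.6 and 14.6 CPM in hypoxia + rSRGN, and was called lower in hypoxia (log2 fold change -1.17, edgeR adjusted p = 5.42e-09). The Gas5 level over the Zbtb37 level was 2.62 ± 0.427 in control, 12.8 ± 0.862 in hypoxia and 8.87 ± 0.25 in hypoxia + rSRGN (SD, n = 3 each). None of these ranges overlapped, and each exact permutation test between 2 groups gave p = 0.1, the smallest that 3 against 3 libraries allow.

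Slc3a2 rose with Snhg1 and by more. It read 106, 109 and 108 CPM in control and 323, 357 and 328 CPM in hypoxia (log2 fold change 1.64, edgeR adjusted p = 4.66e-15). The rSRGN libraries, at 321, 326 and 346 CPM, overlapped hypoxia (log2 fold change -0.021, 95% interval -0.16 to 0.12). The ratio of Snhg1 to Slc3a2 was 0.24 ± 0.0228 in control, 0.141 ± 0.00951 in hypoxia and 0.121 ± 0.0122 in hypoxia + rSRGN. Control was separate from both other groups (exact permutation p = 0.1 for each), while the hypoxic groups overlapped (exact permutation p = 0.2).

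Znfx1 overlapped between control (47.1, 49.7 and 50.1 CPM) and hypoxia (53.8, 49.7 and 46.3 CPM), with a log2 fold change of 0.029 and a 95% interval from -0.14 to 0.20. With rSRGN it read 57.9, 65.2 and 62.5 CPM, above every hypoxia library (log2 fold change 0.31, SE 0.082, edgeR adjusted p = 0.0128, short of the fold limit). The ratio of Zfas1 to Znfx1 was 0.36 ± 0.0148 in control, 0.632 ± 0.042 in hypoxia and 0.401 ± 0.0751 in hypoxia + rSRGN, and the rSRGN ratio overlapped that of control (exact permutation p = 0.6). Strand was not used in the counting, so fragments of opposite genes beyond the shared exon bases cannot be told apart by strand.

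**Figure D4:**
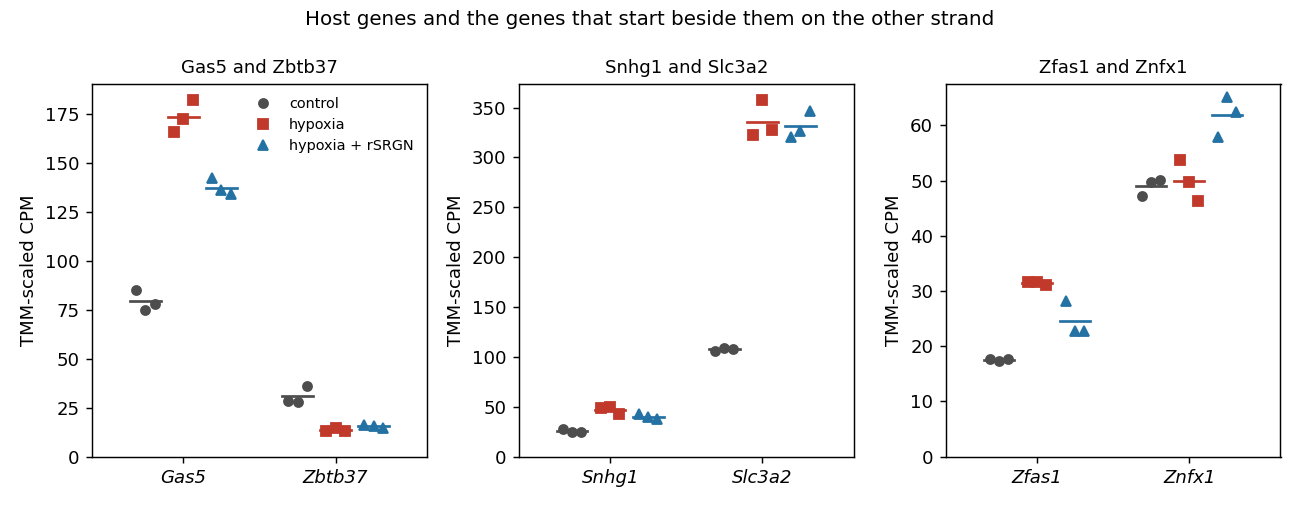
TMM-scaled CPM (vertical axes starting at 0) for 3 snoRNA host genes and the protein-coding genes that start beside them on the other strand, with a point for each library and a bar at the mean of 3. From control to hypoxia Zbtb37 falls while Gas5 rises, Slc3a2 rises with Snhg1, and Znfx1 overlaps between control and hypoxia while Zfas1 separates.

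A further neighbour overlaps a host at its 3′ end. Mcmdc2, on the opposite strand to Snhg6, shares 127 of the 1146 exon bases of Snhg6. It had 1, 1 and 3 fragments in control, 16, 20 and 32 in hypoxia, and 26, 31 and 36 in hypoxia + rSRGN. The 1146 exon bases of Snhg6 held 214 to 518 fragments in these libraries, and how many Mcmdc2 fragments came from the Snhg6 transcript was not tested.

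The promoter windows of RefSeq (GRCm38.p6) were searched for 5 motifs on both strands, since the 8 tested members had all risen in hypoxia. RefSeq has 9 windows for 8 of the members, with 2 for Gas5, and Snhg6 was not matched. TATAAA, the letters of the TATA box, was in 4 of the 9 windows (Snhg1, Snhg3, Snhg5 and Snhg8) and in 13.6% of 32851 windows. In Snhg5 and Snhg8 it lay before the start on the strand of the gene, in Snhg1 before the start on the other strand, and in Snhg3 after the start. TGACGT, part of the cAMP response element, was in 2 (Gas5 and Snhg15) and in 7.51% of windows. ACGTG, the core of hypoxia response elements, was in 3 (Snhg1, Snhg5 and Snhg15) and in 19.6% of windows, and CACGTG, an E-box that contains ACGTG, was in 1 (Snhg15) and in 7.15%. TGATGNAA, an amino acid response element, was in none of the 9 and in 3.97% of windows. The matches describe letters and not bound sites. The 4 windows printed here run from 100 bases before to 50 bases after the annotated start, with matches in capitals, and are both members with TGACGT and 2 of the 4 with TATAAA, picked as examples after the matches were seen. They are Gas5 at chr1:161035066-161035215 on the plus strand, Snhg15 at chr11:6528711-6528860 on the minus strand, Snhg5 at chr9:88522848-88522997 on the minus strand and Snhg8 at chr3:123508287-123508436 on the minus strand.
Gas5: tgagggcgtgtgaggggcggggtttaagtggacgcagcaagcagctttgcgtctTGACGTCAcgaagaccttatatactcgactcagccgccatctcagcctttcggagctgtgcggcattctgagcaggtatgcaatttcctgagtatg
Snhg15: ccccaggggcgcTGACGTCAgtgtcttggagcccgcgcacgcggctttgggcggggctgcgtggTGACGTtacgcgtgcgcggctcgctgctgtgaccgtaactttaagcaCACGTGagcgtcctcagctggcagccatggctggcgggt
Snhg5: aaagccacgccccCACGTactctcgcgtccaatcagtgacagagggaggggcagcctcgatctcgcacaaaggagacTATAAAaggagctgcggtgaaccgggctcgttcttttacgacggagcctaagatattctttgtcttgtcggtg
Snhg8: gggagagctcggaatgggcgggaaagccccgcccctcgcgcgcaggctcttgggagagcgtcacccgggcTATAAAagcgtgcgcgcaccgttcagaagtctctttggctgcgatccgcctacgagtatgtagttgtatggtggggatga

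The other genes of the snoRNA pathway were described from fixed lists, by counts of calls with the edgeR test in hypoxia against control (26.4% of all tested genes were called higher and 25.1% lower, and without the fold limit 36.8% were higher and 34.1% lower at an adjusted p below 0.05). Among other noncoding snoRNA hosts, 8 of 11 tested genes were called higher and none lower (median log2 fold change 1.10). Snhg11 is among the 8, at a mean of 0.061 CPM in control and 0.57 CPM in hypoxia. It passed the filter on low counts through the hypoxic groups, so its call adds no support. With at least 10 counts in every library, 7 of 10 tested genes were called. Rian, an imprinted host of many C/D box snoRNAs, stood at 222 ± 19.6 CPM in control and 630 ± 18.9 CPM in hypoxia (log2 fold change 1.502, adjusted p = 5.21e-14). Snhg16 rose from 4.63 ± 0.536 to 12.8 ± 0.745 CPM (log2 fold change 1.47, adjusted p = 5.73e-09). Snhg4, Snhg10 and Snhg14 were not called, and Snhg9 had too few counts to be tested.

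Protein-coding hosts were taken as 2 lists. All 23 ribosomal protein genes that host snoRNAs were called higher, with a median log2 fold change of 1.35. Rps12 rose from 149 ± 5.61 to 514 ± 36.1 CPM (log2 fold change 1.78, adjusted p = 2.01e-15) and Rpl13a from 17.2 ± 1.47 to 55.0 ± 1.13 CPM (1.68, adjusted p = 2.22e-13). Ribosomal protein genes have many near-identical processed pseudogenes, so their counts are uncertain where fragments could be shared. Of 20 protein-coding hosts outside the ribosome, 5 were called higher, near the share of all tested genes (26.4%), and 3 lower, below theirs (25.1%). The median of these hosts was 0.14, and without the fold limit 9 were higher and 6 lower. The called ones included Eef1b2, a translation elongation factor subunit (log2 fold change 1.59), and Tpt1, translationally controlled tumour protein (1.18), and on the lower side Tbrg4 (-0.73) and Ptcd3 (-0.62), both of mitochondrial RNA handling.

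SnoRNA-binding and assembly proteins were called higher in 9 of 17 and lower in none (median 0.63), and without the fold limit 13 were higher and 2 lower. Gar1, a core protein of H/ACA particles, rose from 16.1 ± 1.21 to 36.1 ± 1.98 CPM (log2 fold change 1.16, adjusted p = 4.14e-10), and Nufip1, an assembly factor of C/D particles, from 12.2 ± 1.59 to 22.2 ± 1.76 CPM (0.86, adjusted p = 7.19e-07). Of the nonsense-mediated decay factors 4 of 18 were called higher and 5 lower, near the shares of all tested genes (26.4% and 25.1%). Their median was 0.038 against 0.054 for all tested genes, and without the fold limit 5 were higher and 6 lower. Magohb (1.23) and Upf3a (1.00), parts of or bound to the exon junction complex, were on the higher side, and Smg5 (-1.10) and Pnrc2 (-0.91) on the lower. Among 9 tested coding transcripts known as decay targets, 6 were called higher and 1 lower (median 1.65). Atf3, a stress-induced transcription factor, rose from 10.2 ± 1.63 to 379 ± 45.2 CPM (log2 fold change 5.21, adjusted p = 2.34e-19) and Gadd45b to 104 ± 3.83 CPM (2.15), while Smg5, which is on both lists, was the gene called lower. Of 14 genes of the mTOR pathway, which controls translation of pyrimidine-start mRNAs, none was called higher and 7 were called lower (median -0.54), among them Mtor (-1.25, adjusted p = 5.65e-11) and Deptor (-1.66, adjusted p = 6.71e-07). Without the fold limit 3 of the 14 were higher and 11 lower.

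In hypoxia + rSRGN against hypoxia few genes on these lists passed the call (3.13% of all tested genes did, and 29.4% had an unadjusted p below 0.05). By edgeR no ribosomal protein host was called, but 16 of 23 were lower at an adjusted p below 0.05 without the fold limit (6.11% of all tested genes), 22 were lower at an unadjusted p below 0.05 (13.5% of all tested genes), and all 23 log2 fold changes were below 0 (median -0.24). For example, Rps12 had a log2 fold change of -0.26 (SE 0.071, adjusted p = 0.0156). No other noncoding host was called by edgeR (2 of 11 had an unadjusted p below 0.05), with a median of -0.11 and Rian at -0.071. No snoRNP or assembly gene was called by edgeR (9 of 17 had an unadjusted p below 0.05), with 16 of 17 values below 0 and a median of -0.21. Fbl, the methyltransferase of C/D particles, had the edgeR log2 fold change -0.43 (adjusted p = 0.00168) and was named after its value was seen. Decay factors (median -0.013), decay targets (median 0.064) and hosts outside the ribosome (median -0.098) had no call by edgeR, and 10 of 18, 2 of 9 and 5 of 20 of them had an unadjusted p below 0.05. The shares of the other noncoding hosts, the decay targets and the hosts outside the ribosome were below that of all tested genes. In the mTOR list Deptor, an inhibitor of mTOR, was called higher (0.78, adjusted p = 0.024), the only gene of that list to be called, and it was not called without hypoxia replicate 2, hypoxia replicate 3 or rSRGN replicate 2. Of the 14 genes of that list, 6 had an unadjusted p below 0.05 by edgeR. Without the fold limit 3 were higher and 1 lower at an adjusted p below 0.05.

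**Figure D5:**
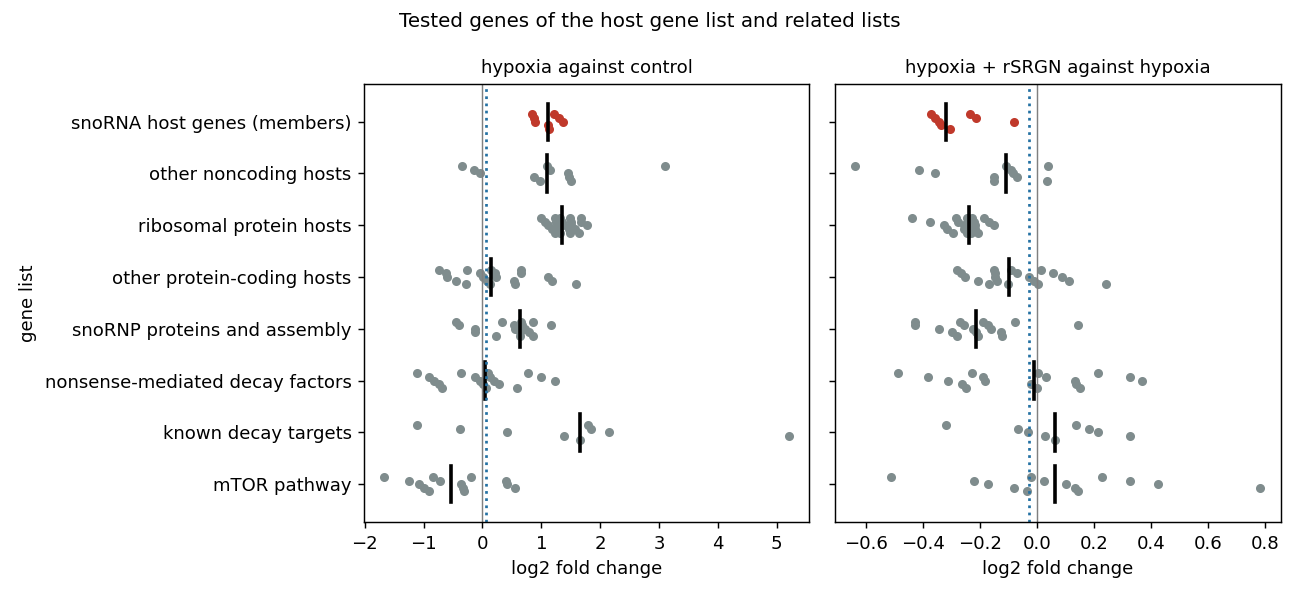
Log2 fold changes (horizontal axes, with different ranges) of tested genes in the host gene list and 7 related lists, with a point for each gene, a black bar at the median of the list and a dotted line at the median of all tested genes. In hypoxia against control the members (median 1.12) and ribosomal protein hosts (1.35) lie wholly above 0, and with rSRGN both lie wholly below 0 (medians -0.32 and -0.24).

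The genes whose log2 CPM followed each member most closely over the 9 libraries were found by Pearson r. With 3 groups that stand apart, such an r mostly follows the group means and the libraries are shared, so it is a description. For Gas5 they were Cyb5a, cytochrome b5 (r = 0.999), and Ptgr1, prostaglandin reductase 1 (r = 0.997), with log2 fold changes of 1.02 and 0.86 in hypoxia and -0.34 and -0.24 with rSRGN. Snhg5 was nearest to Psrc1 (r = 0.997), Snhg6 to Vegfd (r = 0.997), Snhg1 to Anapc15 (r = 0.996) and Zfas1 to the pseudogene Gm20391 (r = 0.994), which has a mean of 0.298 CPM. Snhg12 was nearest to Naa16 (r = 0.993), Snhg15 to Gm26707 (r = 0.992) and Snhg8 to Brd3os (r = 0.989). The next nearest were Ikbke, Snrpb2, Sdf2l1, Hikeshi, 3930402G23Rik and Zwilch for Snhg5, Snhg6, Snhg1, Zfas1, Snhg12 and Snhg15 in that order (r from 0.984 to 0.994).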

How the data were processed

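RNA was measured by poly(A)-enriched paired-end sequencing on an Illumina NovaSeq instrument in 9 libraries, grouped by the treatment in their labels. The authors deposited fragment counts per gene, without normalization. Per the file headers they were made with featureCounts 2.0.1 on exons of GENCODE vM25 with no strand option. The submitters' processing notes name HISAT2 and mm10, and the strandedness of these libraries is not given in the sources used here. All 9 columns were used and 0 were left out.

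edgeR 4.0.16 (R 4.3.3) was run on the counts (filterByExpr, TMM, a mean per group over all 9 libraries, quasi-likelihood test, Benjamini-Hochberg adjustment over 16762 genes). Calls needed both an adjusted p under 0.05 and a change of 1.5-fold or more. The fit was checked on simulated counts in which few genes changed, equally up and down. That check does not cover scaling where as many genes change as in hypoxia against control. Deposited counts gave 16583985 to 22781557 fragments per library. The smallest and largest r of deviations from the group means between libraries with the same number were -0.037 and 0.021. No pairing by number was seen, which does not exclude one. Replicates differed by more than counting noise (chi-square per degree of freedom 3.63 to 13.1).

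The members and lists were chosen with earlier results of these data known. The rule for naming genes took the members, their neighbours and snoRNAs, the 2 genes most like each member, and the 2 called genes of each list that rose most and the 2 that fell most in hypoxia, at a mean of at least 1 CPM. Fbl, Kdr, Lyz2, Vwf, Rcc1, Gm17300, Mcmdc2, Snhg4, Snhg9, Snhg10, Snhg11 and Snhg14 fall outside it and were named after their values were seen. One gene that the rule took is not reported here. Member positions are those of the table (GRCm38). The span of 7 members equalled that in GENCODE M21, which supplied transcripts, and those of Snhg5 and Snhg15 did not. Alternatives were DESeq2 1.42.0, other scalings, filters, thresholds and samples, and the length of the longest spliced transcript, which was added after the data were seen. Intervals are 95%, and figures were drawn with matplotlib.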

Additional observations from a re-analysis of the deposited data

How the results depend on the processing

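The directions of the 8 tested host genes held under all 19 alternatives in hypoxia against control and in hypoxia + rSRGN against control, and in hypoxia + rSRGN against hypoxia for all but Snhg12, which ran from -0.25 to 0.061. Host genes called were 8 in every alternative of the first comparison. In hypoxia + rSRGN against hypoxia the number went from 0 to 3 without the fold limit, and over all genes from 525 to 899 with unadjusted p and 2790 without the fold limit. Leaving out each library gave 321 (without hypoxia replicate 3) to 699 genes there, 8496 to 8952 in hypoxia against control and 8028 to 8535 in hypoxia + rSRGN against control. Host genes called then ran from 8 to 8, 0 to 0 and 6 to 7, the seventh being Snhg5 without control replicate 1 (log2 fold change 0.59). The median log2 fold change of the hosts ran from 1.01 (without control replicate 2) to 1.199 in hypoxia against control, from -0.34 to -0.28 with rSRGN against hypoxia, and from 0.75 (without control replicate 2) to 0.93 (without control replicate 1) with rSRGN against control. That last median was 0.75 with every gene of at least 1 count, where Snhg3 enters as the ninth member and the other fold changes shift as well (Gas5 from 0.79 to 0.75). With the replicate number as a block, 8550, 495 and 8096 genes and 8, 0 and 6 hosts were called. No pairing by number was seen, and the block changed no call of a host. For the lists, 10 cardiomyocyte markers called with rSRGN became 6 (without hypoxia replicate 3) to 11 when libraries were left out, and 0 other noncoding hosts became 0 to 2 (without hypoxia replicate 1). Without the fold limit, list counts in hypoxia against control went from 8 to 15 for hosts outside the ribosome, 9 to 15 for snoRNA-binding proteins and 7 to 14 for the mTOR list. The cause was not tested. Of 1254 alternative values in all, 1212 were taken as unchanged. A count was unchanged if it stayed within a factor of 1.5, and a median if it moved by less than the spread of replicates. The fold change of a host gene was unchanged if its call did not change, even where an uncalled value changed sign, as for Snhg12.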
